A study of Mus musculus with 13 samples.

Results

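The Slc25a genes encode the mitochondrial solute carriers, and their RNAs were followed through a pull-down with the RNA-binding part of dAKAP1. Members were all features of the count table whose mouse symbol is Slc25a followed by a number, which gave 44 of 27071 features. That rule uses symbols alone, though it was set with earlier results of these data known. All 44 had a position in RefSeq's annotation of GRCm38, the build given here. MA-10, the source of the RNA in all libraries, is a cell line from a mouse Leydig cell tumour and was grown in RPMI medium with horse serum. KHT (4 libraries) is RNA held by a purified bait of the KH and Tudor domains of dAKAP1 and recovered with an antibody to MBP (maltose-binding protein), the tag of the bait. NEG (5 libraries deposited) is RNA recovered in the same way from negative controls, which were empty beads, MBP or a bait named KHT(GDDG). Which NEG library came from which control was not given in the sources used here, so NEG was treated as 1 group. NEG 2 was 0 throughout, so 4 NEG libraries were used. IPT (4 libraries) is the input RNA, with ribosomal RNA depleted. All groups share the 1 cell line, and the labels name no genotype, drug or time. Nothing in the labels says that replicates came from separate cultures, so p-values measure the spread between these libraries alone.

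Mitochondrial carriers sit in the inner mitochondrial membrane, which is closed to most ions and metabolites, and each passes a small set of substrates across it, often by exchange. They are made in the cytosol from nuclear genes and are inserted from there by the TIM22 complex. In Leydig cells mitochondria also hold the first enzyme of steroid synthesis, which uses NADPH, and the exchange of malate and citrate across the membrane contributes to its supply. dAKAP1 anchors protein kinase A at the outer mitochondrial membrane, and its KH and Tudor domains bind RNA. Set against NEG, the KHT libraries show which RNAs took another normalised share than in the controls, not which were recovered in a larger amount. The comparisons of KHT and of NEG with IPT ask whether an RNA took another share of the recovered RNA than of the input.

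Total counts ran from 1955446 to 3689792 in KHT, from 1162178 to 1618998 in NEG and from 2487679 to 3085423 in IPT. The 9 features that each held at least 0.5% of pooled NEG counts took 42.9% ± 9.88 of all counts in KHT, 97.1% ± 0.964 in NEG and 32.6% ± 5.62 in IPT (n = 4 each, ± SD). Outside them, KHT libraries held 929348 to 2101632 counts, NEG libraries 31318 to 49062 and IPT libraries 1542713 to 2237374. The NEG libraries did not look alike. The 10 markers of Leydig cells, which all had counts in each group, summed to 1470 to 2200 CPM (counts-per-million) of the counts outside the 9 features in KHT and to 1468 to 2668 in IPT. In NEG 5 they summed to 1977 (97 counts), but in NEG 1, 3 and 4 to 63.9, 356 and 375 (2, 14 and 13 counts). Among NEG libraries, Cyp17a1, Star and Insl3 had counts in NEG 5 alone (10, 7 and 4). Scarb1 did not follow the sum, with 2 counts in NEG 3 and 0 in NEG 5. Of 5 markers of epithelium, 4 are in the table (Krt8 and Epcam at 0 in NEG), and their sum went the other way from that of the Leydig markers. It was 12.1 to 123 CPM in KHT, 0 in NEG 5, 671, 738 and 520 in NEG 1, 3 and 4, and 2.45 to 23.7 in IPT. In NEG 1, 3 and 4 it was made up of Krt14 (17, 26 and 14 counts) and Krt5 (4, 3 and 4). Epcam did not follow the sum, with 7 to 20 counts in a KHT library, 0 in NEG and 4 to 29 in an IPT library. Of 3 markers of endothelium, 2 are in the table and summed to 55.2 to 90.9 in KHT, to 143 in NEG 5 and 1118, 662 and 635 in NEG 1, 3 and 4, and to 51.9 to 118 in IPT. That NEG sum was almost all Pecam1, with 35, 24 and 20 counts in NEG 1, 3 and 4, while Cdh5 had 29 to 158 counts in a KHT library, 0, 2 and 2 in NEG 1, 3 and 4, and 57 to 232 in an IPT library. All libraries come from the 1 cell line, so these sums are not read as numbers of cells of a type. Where the marker counts in NEG came from was not tested. The part of these differences in the carrier values was not tested, and results that rest on NEG are given below with and without single NEG libraries.

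The carriers were measured well in KHT and IPT and barely in NEG. They summed to 5247, 2886, 6049 and 2726 counts in KHT 1 to 4, to 88, 86, 112 and 112 in NEG 1, 3, 4 and 5, and to 6238, 4633, 4442 and 6479 in IPT 1 to 4. Between 40 and 43 of the 44 had a count in each KHT library. In NEG 1, 3, 4 and 5 the numbers were 4, 10, 8 and 19, and in each IPT library between 41 and 43. As a share of counts outside the 9 features, the family made up 0.290% ± 0.0112 in KHT, 0.263% ± 0.0487 in NEG and 0.286% ± 0.00280 in IPT (n = 4 each, ± SD). As a share of all counts it made up 0.166% ± 0.0333, 0.00737% ± 0.00154 and 0.193% ± 0.0168 in KHT, NEG and IPT. The first of these shares has KHT and IPT means inside the range of the NEG libraries (0.219% to 0.323%), where it rests on 86 to 112 counts a library.

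**Figure D1:**
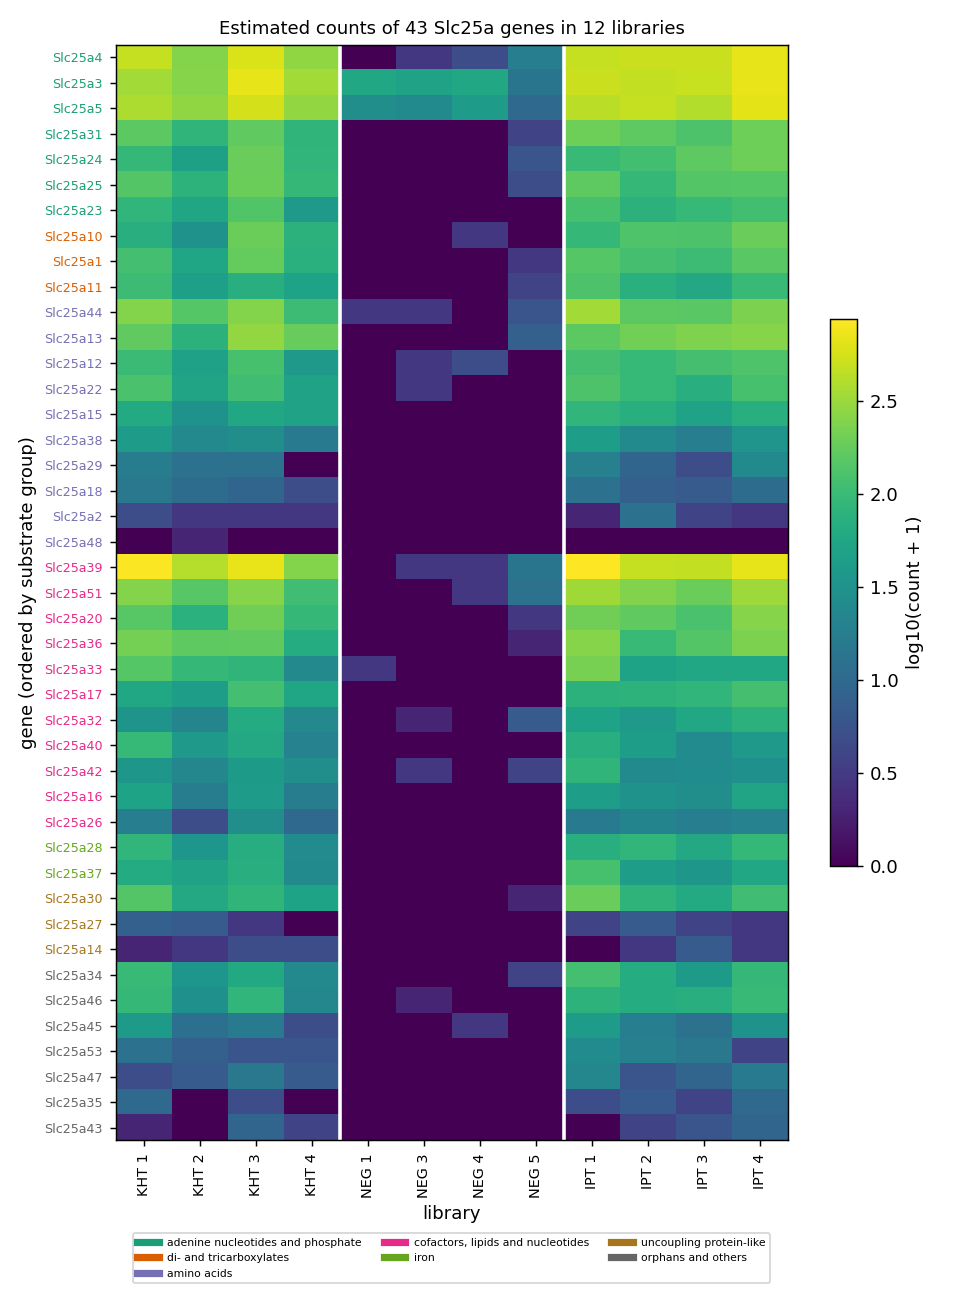
Estimated counts of 43 Slc25a genes (down, ordered by substrate group and, within it, by pooled input counts) in 12 libraries (across), on a log10(count + 1) colour scale. KHT and IPT libraries have counts for nearly every gene, while NEG 1, 3 and 4 are mostly dark apart from Slc25a3 and Slc25a5, and NEG 5 has counts for 18 of the genes shown.

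Of 398 carrier counts in NEG, 274 belonged to Slc25a3 and Slc25a5. These genes encode the phosphate carrier and an ADP/ATP carrier, both abundant proteins of respiring mitochondria. Together they took 13.6%, 18.5%, 20.4% and 23.0% of carrier counts in KHT 1, 2, 3 and 4. In NEG 1, 3 and 4 they took 95.5%, 83.7% and 85.7%, but 19.6% in NEG 5, which lies within the KHT range, and in IPT 19.1% ± 2.81 (SD, n = 4). The other 42 carriers had 4, 14 and 16 counts in NEG 1, 3 and 4 and 90 in NEG 5. For 11 carriers, all NEG counts lay in NEG 5.

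**Figure D2:**
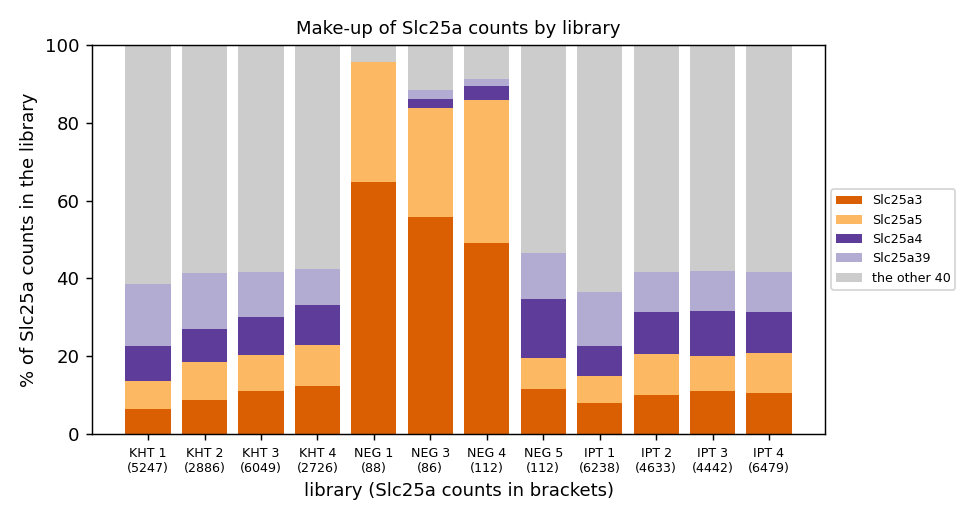
Share of each library's Slc25a counts (vertical axis, percent) taken by Slc25a3, Slc25a5, Slc25a4, Slc25a39 and the other 40 genes, with the number of counts under each library. Slc25a3 and Slc25a5 fill 95.5%, 83.7% and 85.7% of NEG 1, 3 and 4, whereas their share in NEG 5 (19.6%) lies within the range of the KHT libraries.

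How often a carrier was seen in NEG went with how many counts it had in the input. All 7 carriers with under 50 pooled IPT counts were at 0 in NEG, as were 12 of the 23 with at least 50 but under 500, while each of the 14 with 500 or more had NEG counts. In a KHT or IPT library 1 count is worth 0.11 to 0.25 normalised CPM, and in a NEG library 4.12 to 6.75. A floor of 3 counts, summed over the 4 NEG libraries, stands at 3.81 CPM, which the KHT mean of 12 carriers did not reach. Of these, Slc25a45 had 2 counts in NEG 4. For the others, all at 0 in NEG, a KHT excess could not clear the floor in this scaling. Of these 12 genes, 4 were tested, and they were called higher in KHT with libraries scaled by total counts alone. Bounds taken from the floor, given below as at least a fold, cover counting error only and are too high if both mates of a pair were counted. Levels are compared within a gene only, because transcript lengths were not used here. Reads of near-identical copies could also have been shared out by the authors' estimation, and processed copies of abundant carrier genes such as Slc25a5 make their values uncertain.

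Of the 44 carriers, 36 passed the filter on low counts and were tested among 10714 genes. The 8 not tested had at most 50 pooled counts in KHT or IPT. They were the ornithine carrier Slc25a2, the glutamate carrier Slc25a18, the uncoupling protein-like Slc25a14 and Slc25a27, Slc25a35, Slc25a43 and Slc25a47, which have no substrate assigned here, and the choline carrier Slc25a48. All 8 were at 0 in each NEG library, and Slc25a48 had 1 count in all, in KHT 2. Slc25a18 had 14, 10, 8 and 4 counts in KHT against 12, 7, 6 and 10 in IPT. Slc25a47 had 4, 6, 14 and 6 in KHT against 22, 5, 8 and 15 in IPT, and lies near the basic amino acid carrier Slc25a29 (chromosome 12, 108849833 to 108856815 and 108825878 to 108835876). Slc25a43 had 1, 0, 8 and 3 counts in KHT against 0, 3, 5 and 8 in IPT. It is the neighbour of Slc25a5 on chromosome X (36743570 to 36777307 and 36795597 to 36798808).

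Between KHT and IPT no carrier was called. Of 36 tested, 0 were called higher and 0 lower by edgeR's quasi-likelihood test at an adjusted p under 0.05, beside 0.00933% of all genes higher and 0% lower. At an unadjusted p under 0.05 there were also 0, and DESeq2 and limma voom called 0 carriers as well. The log2 fold changes ran from -0.62 to 0.60, were positive for 18 carriers and negative for 18, and lay within 0.5 of zero for 34. Their median was 0.0017, against 0.0081 over all genes tested. The ranges of KHT and IPT overlapped for all 36, beside 0.84% of all genes with each KHT library above each IPT library and 1.17% with each below. These data do not show that levels were equal. The 95% intervals reached 0.71 to either side of the estimate at the median, from 0.57 for the narrowest to 1.34 for the widest, and 25 of 36 lay wholly within a 2-fold change either way.

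**Figure D3:**
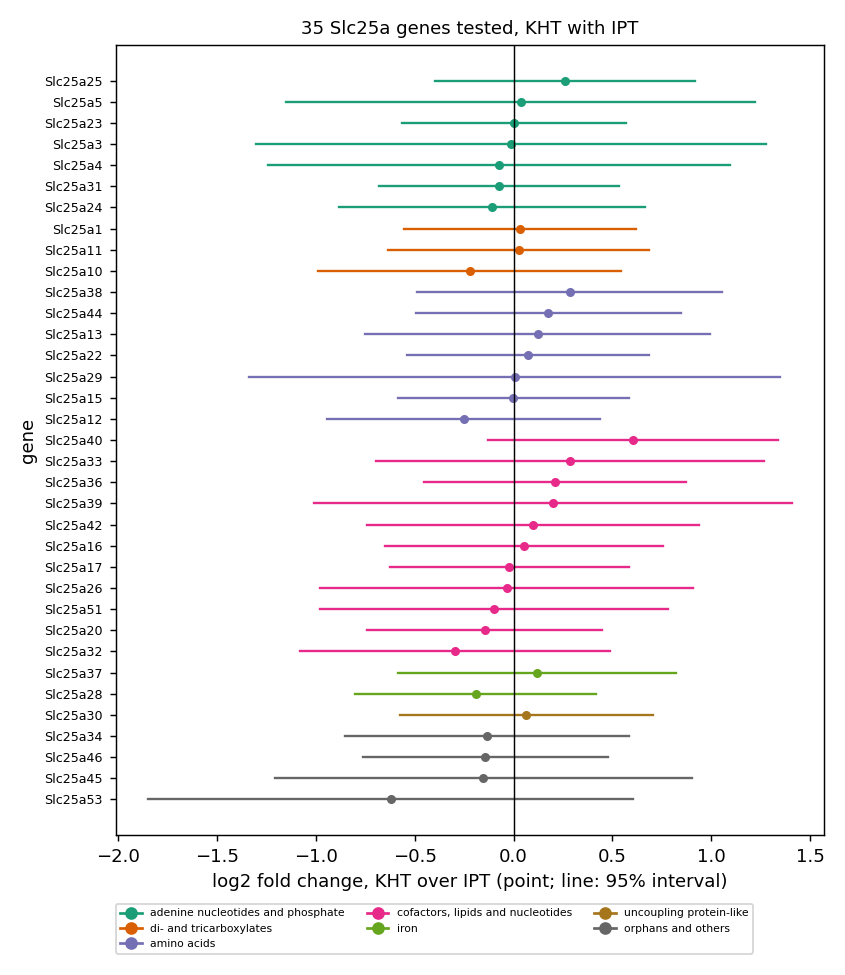
Log2 fold change of KHT over IPT (point) with its 95% interval (line) for 35 Slc25a genes tested, coloured by substrate group and ordered within it by the estimate. Every interval crosses 0, and the estimates run from -0.62 (Slc25a53) to 0.60 (Slc25a40).

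The estimates farthest from zero were those of Slc25a40 and Slc25a53. Slc25a40, a carrier of glutathione, had 93, 37, 58 and 19 counts in KHT and 68, 44, 25 and 38 in IPT, or 8.05 ± 3.23 and 5.33 ± 1.73 CPM (n = 4 each, ± SD; log2 fold change 0.60, 95% interval -0.13 to 1.34). Slc25a53, an orphan carrier, had 12, 7, 5 and 5 counts in KHT and 25, 18, 14 and 3 in IPT (-0.62, 95% interval -1.85 to 0.61). In both genes the KHT and IPT libraries overlap, and the lowest IPT library of Slc25a53 lies below every KHT library. Across the 36 genes, log2 mean levels in KHT and in IPT went together with a Pearson's r of 0.990 and a Spearman's rho of 0.989. Genes are not independent replicates, they share the libraries, and differences in length and abundance between genes alone give a high value.

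KHT stood above NEG for many carriers, and the counts behind the NEG side were few. Of 36 tested, 18 were called higher in KHT, beside 31% of all genes tested, and 1 was lower, Slc25a3, beside 2.72% (edgeR quasi-likelihood test, adjusted p under 0.05). A carrier with few NEG counts could pass the filter through KHT and IPT alone, so the number above NEG is a description. Each KHT library lay above each NEG library for 18 carriers, beside 45.8% of all genes, and each lay below for 0, beside 1.02%. The fitted log2 fold changes had a median of 2.42 (1.29 once the 11 carriers without NEG counts were placed at their lower bounds), against a fitted median of 1.73 over all genes. Of the 18 called higher, 8 were at 0 in NEG and 10 had NEG counts. Calls came from both ends of the input range, with 11 of 22 carriers under 500 pooled IPT counts and 7 of 14 above. When libraries were scaled by total counts alone, all 36 were higher in KHT, Slc25a3 included, and the median over all genes was 5.66.

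The counts of calls depended on the NEG libraries used. Without NEG 1 there were 8 calls (7 higher, 1 lower), without NEG 3 there were 13 and without NEG 4 there were 12, all higher, and without NEG 5 there were 24 (22 higher, 2 lower). Calls over all genes moved too, from 3615 with all libraries to 1911, 2617, 2520 and 5681 without NEG 1, 3, 4 and 5. Set against NEG 5 as the one NEG library, an alternative chosen after seeing the data, 0 of 36 carriers were called, beside 177 genes higher and 38 lower of all tested. The carriers Slc25a15, Slc25a17, Slc25a20, Slc25a23, Slc25a28 and Slc25a36 were called higher in KHT in each of the 21 other alternatives. Against NEG 5 alone their adjusted p-values were 0.247, 0.178, 0.369, 0.143, 0.234 and 0.238. With KHT and NEG fitted by themselves 11 carriers were called, beside 2121 of all genes. The calls of Slc25a3, Slc25a16, Slc25a22, Slc25a25, Slc25a38, Slc25a39, Slc25a44 and Slc25a46 ended in that fit (edgeR adjusted p from 0.0617 to 0.167). Slc25a16 and Slc25a38 were not called in DESeq2 either (0.0512 and 0.0728), and Slc25a16, Slc25a38, Slc25a44 and Slc25a46 were not called in limma voom (0.0543, 0.0892, 0.0566 and 0.0578). With counts outside the 9 features as library size, Slc25a22, Slc25a25, Slc25a38, Slc25a44 and Slc25a46 were not called (0.0597, 0.0735, 0.0657, 0.1115 and 0.0759). A filter at a mean of 10 CPM, here of total counts, ended the calls of Slc25a22, Slc25a25, Slc25a44 and Slc25a46 (0.0526, 0.0581, 0.0960 and 0.0678). It left Slc25a16 and Slc25a38 untested. With all values halved, as for mates counted apart, Slc25a16 and Slc25a38 were not called (0.0944 and 0.114).

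**Figure D4:**
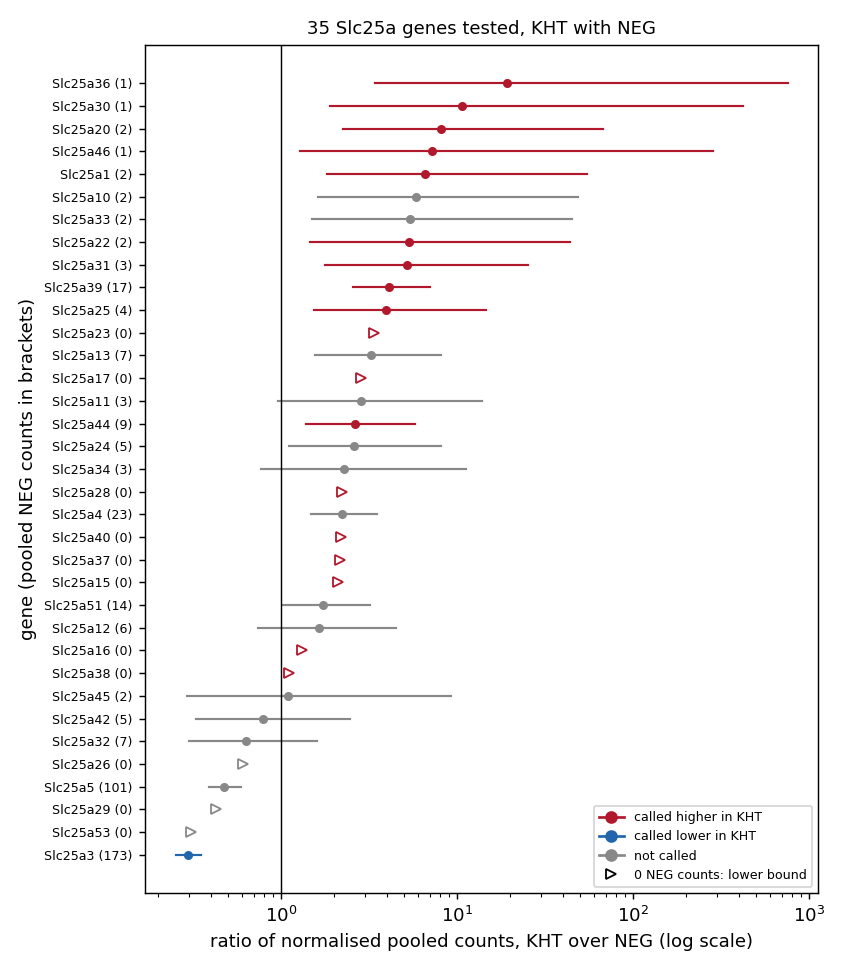
Ratio of normalised pooled counts of KHT over NEG (log axis) for 35 Slc25a genes tested, with 95% counting intervals; open triangles are lower bounds for genes at 0 in NEG, and pooled NEG counts stand in brackets. Red marks genes called higher in KHT, blue the one called lower (Slc25a3, ratio 0.297, which was higher in KHT under scaling by total counts) and grey those not called, and the called genes at the top rest on 0 to 3 NEG counts.

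Carriers of adenine nucleotides and phosphate feed substrates to ATP synthase and export its product. They held 38.0% of pooled carrier counts in KHT, 77.6% in NEG and 38.9% in IPT. Of their 309 NEG counts, 274 belonged to Slc25a3 and Slc25a5, with ratios of KHT over NEG of 0.297 and 0.478. The ratio was 2.22, 2.62, 3.97 and 5.23 for Slc25a4, Slc25a24, Slc25a25 and Slc25a31, and at least 3.37 for Slc25a23. Of 7 tested, 3 were higher in KHT and 1 was lower, each against NEG, beside 31% and 2.72% of all genes. The lower one was Slc25a3, which imports phosphate and copper (chromosome 10, 91116574 to 91124046). It had 339, 255, 677 and 336 counts in KHT, 57, 48, 55 and 13 in NEG 1, 3, 4 and 5, and 499, 465, 497 and 692 in IPT. In normalised CPM it stood at 44.9, 58.7, 77.2 and 84.2 in KHT, 244, 292, 372 and 53.6 in NEG, and 53.6, 66.1, 74.7 and 73.0 in IPT. NEG 1, 3 and 4 lie above every KHT and IPT library, and NEG 5 lies within the KHT range. The log2 fold change of KHT over NEG was -1.85 (SE 0.65, edgeR adjusted p = 0.0348), yet 2.33 with libraries scaled by total counts alone, beside a median of 5.66 over all genes there. The call ended without any 1 of the KHT libraries (edgeR adjusted p from 0.0620 to 0.1003), without any 1 of the IPT libraries (0.0580 to 0.0610), without NEG 3 (0.0551) or NEG 4 (0.0650), with no filter on low counts (0.194) and in the fit of both groups alone (0.167). Against NEG 5 alone the sign turned (0.32, adjusted p = 0.660). Between KHT and IPT the log2 fold change was -0.01 (95% interval -1.30 to 1.28).

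The 3 ADP/ATP carriers differed in how NEG stood to KHT. Slc25a5 (ANT2; chromosome X, 36795597 to 36798808) had 377, 280, 560 and 292 counts in KHT, 27, 24, 41 and 9 in NEG and 433, 485, 395 and 667 in IPT. KHT ran from 49.9 to 73.2 CPM, while NEG 1, 3 and 4 stood above that at 116, 146 and 277, as with Slc25a3, and NEG 5 was the lowest of all 12 libraries at 37.1. Slc25a5 was not called between KHT and NEG (log2 fold change -1.18, SE 0.60, edgeR adjusted p = 0.118; 3.04 under total counts and 0.77 against NEG 5 alone), though DESeq2 called it lower in KHT on the same libraries (adjusted p = 0.0207), as did edgeR without NEG 5 (0.00423). Slc25a4 (ANT1, the heart and muscle form; chromosome 8, 46207168 to 46211062) had 478, 247, 592 and 279 counts in KHT, 0, 2, 4 and 17 in NEG and 484, 505, 509 and 671 in IPT. KHT ran from 56.9 to 69.9 CPM, and NEG 1, 3, 4 and 5 stood at 0, 12.2, 27.0 and 70.1, opposite to Slc25a5, with NEG 5 above every KHT library. Slc25a4 was not called (1.195, SE 0.66, edgeR adjusted p = 0.149) in edgeR with all libraries, but DESeq2 called it higher in KHT on the same libraries (0.0163), as did edgeR without NEG 5 (0.00373). Slc25a31 (ANT4; chromosome 3, 40708871 to 40726094), known in mouse from male germ cells, had 158, 82, 168 and 83 counts in KHT, 3 in NEG, all in NEG 5, and 195, 160, 130 and 197 in IPT. Its level varied little, at 19.9 CPM with an SD of 1.08 in KHT and 21.01 with an SD of 1.32 in IPT (n = 4 each). Of 3 germ cell markers, 2 are in the table. Ddx4 had 25, 12, 20 and 6 counts in KHT, 0 in NEG and 35, 15, 14 and 18 in IPT. Sycp3 had 2 counts in KHT 1 and none in any other library. Slc25a31 was higher in KHT than in NEG, by a ratio of 5.23 (95% counting interval 1.78 to 25.5; edgeR adjusted p = 0.0164), a call that ended without NEG 1 (0.0549).

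Among the calcium-regulated ATP-Mg/phosphate carriers, which shift the size of the matrix nucleotide pool, Slc25a23 (chromosome 17, 57043711 to 57059909) had the highest bound among carriers at 0 in NEG. It had 86, 54, 138 and 38 counts in KHT, 0 in every NEG library and 119, 77, 92 and 111 in IPT. Against that floor KHT was at least 3.37-fold higher than NEG (edgeR adjusted p = 0.0053), and KHT and IPT levels were close at 12.3 ± 2.60 and 12.3 ± 1.26 CPM (n = 4 each, ± SD; log2 fold change 0.0042, 95% interval -0.56 to 0.57). Slc25a25 was higher in KHT (20.1 ± 2.10 CPM, against 4.12 ± 8.24 in NEG; log2 fold change 1.999, SE 0.71, edgeR adjusted p = 0.0358), with its 4 NEG counts all in NEG 5. That call ended without KHT 3 (0.0545), KHT 4 (0.0528), NEG 1 (0.1215), NEG 3 (0.0882) or NEG 4 (0.0850). Slc25a24, with 5 NEG counts, all in NEG 5, was not called (1.39, edgeR adjusted p = 0.163; 0.0128 without NEG 5).

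Carriers of di- and tricarboxylates link the citric acid cycle to cytosolic lipid synthesis and to NADPH. Of 3 tested, 1 was higher in KHT than in NEG, beside 31% of all genes, namely the citrate carrier Slc25a1 (chromosome 16, 17925211 to 17928219). It had 115, 53, 173 and 72 counts in KHT, 2 in NEG 5 and 0 in the other NEG libraries, and 146, 116, 103 and 155 in IPT. The ratio of KHT over NEG was 6.60 (95% counting interval 1.82 to 54.7; edgeR adjusted p = 0.0146), and the call ended without NEG 1 (0.0514). The malate-oxoglutarate carrier Slc25a11 (chromosome 11, 70644019 to 70647531) had 103, 45, 69 and 50 counts in KHT, 3 in NEG 5 alone and 131, 72, 58 and 98 in IPT, and was not called (ratio 2.85, 95% counting interval 0.964 to 13.9; edgeR adjusted p = 0.118). Without NEG 5 it was (0.00587). The dicarboxylate carrier Slc25a10 (chromosome 11, 120491837 to 120501161) had 71, 31, 189 and 77 counts in KHT, 2 in NEG 4 alone and 89, 133, 130 and 183 in IPT. It was not called either (ratio 5.88, 95% counting interval 1.62 to 48.8; edgeR adjusted p = 0.0626), but was in DESeq2 (0.0413), with no filter on low counts (0.0167), without KHT 2 (0.0421) and without NEG 4 (0.0293). None of these 3 carriers was called between KHT and IPT, with log2 fold changes of 0.03, 0.03 and -0.22 for Slc25a1, Slc25a11 and Slc25a10 and 95% intervals that together span -0.99 to 0.68.

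Of 7 tested carriers of amino acids, KHT was higher than NEG for 4 and lower for 0, beside 31% and 2.72% of all genes. Slc25a15, which exchanges ornithine for citrulline in the urea cycle (chromosome 8, 22375550 to 22398621), had 62, 31, 57 and 49 counts in KHT, 0 in every NEG library and 86, 68, 49 and 71 in IPT. KHT was at least 2.12-fold higher than NEG (edgeR adjusted p = 0.0112). The glycine carrier Slc25a38, needed for heme synthesis, was also at 0 in NEG and barely cleared the floor (at least 1.12-fold; edgeR adjusted p = 0.0365), with 40, 23, 27 and 15 counts in KHT and 44, 24, 17 and 33 in IPT. Its call ended without KHT 1 (0.0559), NEG 1 (0.101), NEG 3 (0.0708), NEG 4 (0.0690) or NEG 5 (0.0578). The glutamate carrier Slc25a22 had 124, 51, 109 and 49 counts in KHT (11.7 to 16.4 CPM) and 2 in NEG 3, whose 12.2 CPM lie inside that range. The ratio was 5.32 (95% counting interval 1.46 to 44.2; edgeR adjusted p = 0.0315), with the call ended without KHT 1 (0.0545), NEG 1 (0.107), NEG 4 (0.0735) or NEG 5 (0.0533).

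Slc25a44, a carrier of branched-chain amino acids (chromosome 3, 88410494 to 88425141), had 247, 147, 245 and 103 counts in KHT, 2, 2, 0 and 5 in NEG and 340, 159, 152 and 231 in IPT. It was higher in KHT than in NEG (log2 fold change 1.42, SE 0.54, edgeR adjusted p = 0.0479), and the groups do not overlap, with KHT at 25.8 to 33.9 CPM and NEG at 0 to 20.6. The call ended without any 1 library other than NEG 5, with edgeR adjusted p-values from 0.0504 without IPT 1 to 0.113 without NEG 4. The aspartate-glutamate carriers of the malate-aspartate shuttle were not called by edgeR with all libraries and the filter. Citrin, Slc25a13 (chromosome 6, 6041218 to 6217304), had 164, 76, 289 and 181 counts in KHT, 7 in NEG, all in NEG 5, and 157, 207, 232 and 254 in IPT (log2 fold change of KHT over NEG 1.76, SE 0.75, edgeR adjusted p = 0.0709). Slc25a13 was called higher in KHT by DESeq2 (0.0220), by limma voom (0.0241), by edgeR with no filter on low counts (0.0231) and without NEG 5 (0.00336). Aralar, Slc25a12, stood at 11.9 ± 2.08 CPM in KHT, 9.80 ± 12.8 in NEG and 14.3 ± 2.19 in IPT (n = 4 each, ± SD; KHT over NEG 0.62, edgeR adjusted p = 0.468). Its 6 NEG counts lay in NEG 3 and NEG 4. Slc25a29 was at 0 in NEG, but its 16, 12, 12 and 0 KHT counts did not clear the floor.

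Carriers of cofactors, lipids and nucleotides were the largest set. KHT was higher than NEG for 6 of 12 tested and lower for 0, beside 31% and 2.72% of all genes. Slc25a39, which imports glutathione (chromosome 11, 102402969 to 102408675), had 837, 413, 688 and 247 counts in KHT, 0, 2, 2 and 13 in NEG and 870, 474, 463 and 674 in IPT. Mean levels were 86.6 ± 21.1 CPM in KHT, 19.8 ± 23.3 in NEG and 75.4 ± 12.2 in IPT (n = 4 each, ± SD), and every KHT library (61.9 to 111) lay above every NEG library (0 to 53.6). The log2 fold change of KHT over NEG was 2.07 (SE 0.70, edgeR adjusted p = 0.0306), with the call ended without KHT 1 (0.0631), KHT 2 (0.0520), KHT 3 (0.0513), NEG 3 (0.0719) or NEG 4 (0.0650) and in the fit of both groups alone (0.1075). Its paralog Slc25a40, at 0 in NEG, was at least 2.21-fold higher in KHT (edgeR adjusted p = 0.0186; 0.0550 without NEG 1). The NAD carrier Slc25a51 (chromosome 4, 45395923 to 45408917) had 247, 151, 256 and 108 counts in KHT, 0, 0, 2 and 12 in NEG and 333, 240, 187 and 326 in IPT. KHT libraries ran from 27.1 to 34.8 CPM, with NEG 5 above them all at 49.5, and Slc25a51 was not called (log2 fold change 0.85, SE 0.62, edgeR adjusted p = 0.268; 0.00289 without NEG 5, and -0.66 against NEG 5 alone).

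The smallest p-values of the set belonged to carriers of nucleotides, acylcarnitines and peroxisomal cofactors. Slc25a36, a carrier of pyrimidine nucleotides (chromosome 9, 97075281 to 97111041), had 210, 161, 164 and 65 counts in KHT, 1 in NEG 5 and 252, 96, 143 and 227 in IPT, a ratio of KHT over NEG of 19.2 (95% counting interval 3.43 to 759; edgeR adjusted p = 0.00518). Slc25a20, which exchanges carnitine for acylcarnitines in fatty acid oxidation (chromosome 9, 108662136 to 108684642), had 148, 74, 198 and 90 counts in KHT, 2 in NEG 5 and 198, 166, 124 and 256 in IPT, a ratio of 8.16 (95% counting interval 2.25 to 67.5; edgeR adjusted p = 0.00868). The peroxisomal cofactor carrier Slc25a17, the one member here known outside mitochondria (chromosome 15, 81318921 to 81360765), had 57, 42, 115 and 54 counts in KHT, 0 in NEG and 77, 78, 84 and 118 in IPT, at least 2.86-fold higher in KHT (edgeR adjusted p = 0.0079). In these 3 genes each KHT library lies above each NEG library, and KHT and IPT overlap. Slc25a16, linked to coenzyme A and also at 0 in NEG, was at least 1.31-fold higher in KHT (edgeR adjusted p = 0.0257), with the call ended without NEG 1 (0.0779), NEG 3 (0.0523) or NEG 4 (0.0507).

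The other members of this set were not called between KHT and NEG. The S-adenosylmethionine carrier Slc25a26 had 57 counts in KHT and 0 in NEG (edgeR adjusted p = 0.122), below the floor. Slc25a33, the other pyrimidine nucleotide carrier, had 340 KHT counts and 2 counts in NEG 1, for a ratio of 5.44 (95% counting interval 1.49 to 45.1; edgeR adjusted p = 0.130; 0.0153 with no filter on low counts). Slc25a32, linked to folate and FAD, and Slc25a42, a coenzyme A carrier, had estimates below zero (-0.65 and -0.29; edgeR adjusted p = 0.455 and 0.778). Their NEG counts were 7 and 5.

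Both iron carriers were at 0 in every NEG library and were called higher in KHT, beside 31% of all genes. Mitoferrin 2, Slc25a28 (chromosome 19, 43663801 to 43675006), had 85, 34, 66 and 25 counts in KHT and 70, 86, 58 and 90 in IPT, at least 2.24-fold higher in KHT than in NEG (edgeR adjusted p = 0.0119). Mitoferrin 1, Slc25a37, known from developing red cells, had 63, 49, 68 and 24 counts in KHT and 121, 44, 35 and 57 in IPT, at least 2.17-fold higher (edgeR adjusted p = 0.0193; 0.0581 without NEG 1). The uncoupling protein-like carrier Slc25a30 had 335 KHT counts and 1 count in NEG 5, a ratio of 10.7 (95% counting interval 1.91 to 424; edgeR adjusted p = 0.0164; 0.0614 without NEG 1). Among 4 orphans and others tested, 1 was higher in KHT, beside 31% of all genes. This was Slc25a46, an outer membrane protein that shapes mitochondria (ratio 7.23, 95% counting interval 1.28 to 287; edgeR adjusted p = 0.0418). That call rests on 1 NEG count, in NEG 3, and ended without KHT 1 (0.0712), KHT 3 (0.0642), NEG 1 (0.129), NEG 4 (0.0893), NEG 5 (0.0717) or any 1 IPT library (at most 0.0533). Slc25a34 (215 counts in KHT, 3 in NEG; edgeR adjusted p = 0.273, and 0.0248 without NEG 5) and Slc25a45 (69 and 2; 0.981) were not called. Slc25a53 was at 0 in NEG, with 29 KHT counts that did not clear the floor.

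The comparison of NEG with IPT shares its NEG libraries with that of KHT and NEG and so adds no separate evidence. Of 36 carriers, 17 were lower in NEG than in IPT, beside 32.5% of all genes, and 1, Slc25a3, was higher, beside 3.64% (edgeR quasi-likelihood test, adjusted p under 0.05). Calls in both comparisons numbered 16. Each NEG library lay below each IPT library for 19 carriers, beside 47.1% of all genes, and above for 0, beside 1.74%. The fitted log2 fold changes had a median of -2.38 (-1.30 once carriers without NEG counts were placed at their bounds), against -1.74 over all genes. Slc25a3 averaged 240 ± 135 CPM in NEG and 66.9 ± 9.57 in IPT (n = 4 each, ± SD; 1.84 on the log2 scale, SE 0.65, edgeR adjusted p = 0.0343), but was lower in NEG with libraries scaled by total counts (-2.63). This call too ended without any 1 KHT library (0.0517 to 0.0569), any 1 IPT library (0.0771 to 0.0967), NEG 3 (0.0539) or NEG 4 (0.0646), with no filter on low counts (0.1985) and in the fit of both groups alone (0.140).

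Of the 17 lower in NEG, 8 were at 0 there. These 8 passed the filter on low counts through KHT and IPT alone, so their calls are a description. Slc25a23 was at least 3.23-fold lower in NEG than in IPT (edgeR adjusted p = 0.00467), Slc25a17 at least 2.89-fold (0.00696), Slc25a28 at least 2.46-fold (0.00861) and Slc25a15 at least 2.22-fold (0.0102). Slc25a10 was called here (2 counts in NEG and 535 in IPT, so that IPT over NEG was 6.496 with a 95% counting interval of 1.79 to 53.8; edgeR adjusted p = 0.0405) though not between KHT and NEG, and the difference between both contrasts, which is that of KHT and IPT, was not called. The call ended without IPT 2 (0.0565), IPT 3 (0.0575), IPT 4 (0.0578), NEG 1 (0.145), NEG 3 (0.0997) or NEG 5 (0.109), with counts outside the 9 features as library size (0.0716), a mean of at least 10 CPM (0.0602) or halved values (0.0702). Over all genes, NEG with IPT gave 3872 calls with all libraries, and 2081, 2810, 2672 and 5760 without NEG 1, 3, 4 and 5. Over the carriers, 8 were called without NEG 1, 12 without NEG 3, 11 without NEG 4 and 23 without NEG 5, while leaving out 1 IPT library gave 12 to 14 and 1 KHT library 15. Against NEG 5 as the one NEG library 0 were called. Slc25a15, Slc25a17, Slc25a20, Slc25a23, Slc25a28, Slc25a31 and Slc25a36 were called in each of the 21 other alternatives.

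Within KHT and within IPT, several carriers differed more between libraries than between the groups. The genes shown were chosen after their values were seen. Slc25a33 stood at 19.2 and 20.5 CPM in KHT 1 and 2 and at 9.46 and 5.76 in KHT 3 and 4, and at 23.5 in IPT 1 against 7.11, 8.27 and 6.01 in IPT 2, 3 and 4. Slc25a37 was highest in the same libraries, at 8.35 and 11.3 CPM in KHT 1 and 2 and 13.0 in IPT 1, against 7.75 and 6.02 in KHT 3 and 4 and 5.26 to 6.26 in the other IPT libraries. Slc25a39 stood at 111 and 95.1 in KHT 1 and 2 and 93.5 in IPT 1, and at 61.9 to 78.4 in the other 5. A dicarboxylate and an amino acid carrier ran the opposite way. Slc25a10 stood at 9.41 and 7.14 CPM in KHT 1 and 2 and 9.57 in IPT 1, and at 18.9 to 21.5 in the other 5 libraries. Slc25a13 stood at 21.7 and 17.5 in KHT 1 and 2 and 16.9 in IPT 1, and at 26.8 to 45.4 in the others. Trib3 and Asns, genes of the amino acid stress response that were also chosen after their values were seen, moved with this split. Trib3, a stress-induced pseudokinase, stood at 87.3 and 73.0 CPM in KHT 1 and 2 and 78.0 in IPT 1, against 6.04 and 5.26 in KHT 3 and 4 and 1.56 to 5.71 in the other IPT libraries. Asns, asparagine synthetase, stood at 49.8, 42.8 and 45.1 in the first 3 of these, against 6.54 to 18.3 in the other 5. Their part in the carrier values was not tested, and the KHT and IPT groups each hold libraries of both kinds.

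**Figure D5:**
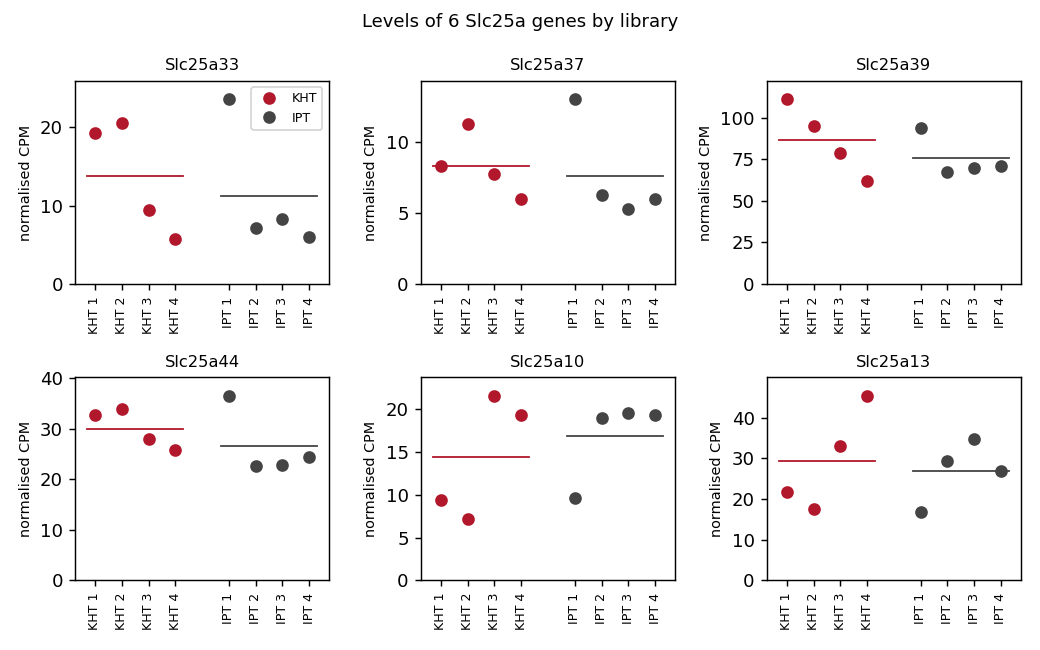
Normalised CPM (linear axis from 0) of 6 Slc25a genes in each KHT library (left, red) and IPT library (right, grey), with the mean of each group as a line. Slc25a33, Slc25a37, Slc25a39 and Slc25a44 are highest in KHT 1, KHT 2 and IPT 1, and Slc25a10 and Slc25a13 are lowest there (Slc25a33 at 23.5 and Slc25a10 at 9.57 in IPT 1).

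Other genes of mitochondrial transport gave these counts. Of 20 tested carriers and transporters with other symbols, such as the pyruvate carrier, the calcium uniporter and mitochondrial ABC transporters, KHT was higher than NEG for 11 and lower for 0, 0 were called between KHT and IPT, and 13 were lower in NEG than in IPT, beside 31% of all genes higher in KHT than in NEG and 32.5% lower in NEG than in IPT. Their median log2 fold change of KHT over NEG was 3.04 as fitted, or 1.46 once the 7 genes at 0 in NEG were placed at their lower bounds, against a fitted median of 1.73 over all genes. Smdt1, a regulatory subunit of the calcium uniporter, had 438 counts in KHT, 0 in NEG and 665 in IPT, and Abcb6, an ABC transporter linked to porphyrins, had 422, 0 and 473. Of 13 tested genes for the insertion of carriers by the TIM22 route, KHT was higher than NEG for 4, 0 were called between KHT and IPT, and 4 were lower in NEG than in IPT, shares near those over all genes. Among them Tomm70a, the outer membrane receptor for carrier precursors, stood at 46.6 ± 6.93 CPM in KHT, 10.7 ± 12.7 in NEG and 47.5 ± 3.22 in IPT (n = 4 each, ± SD; KHT over NEG 2.05, edgeR adjusted p = 0.0220). Timm8a1, a small chaperone of the intermembrane space, had 256 counts in KHT, 0 in NEG and 349 in IPT.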

How the data were processed

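The deposited table holds the authors' estimated counts (expected counts, not scaled) for 27071 gene identifiers in 13 libraries, of which NEG 2 is 0 throughout and was not used. The tools named are kallisto and DESeq2, and the builds GRCm38 and mm10, per the submitters' processing notes. Versions and the step from transcripts to genes are not given in the sources used here. The values were whole, so rounding changed none. Values of 2 outnumber values of 1 in each library, so both mates of a pair may have been counted, and counting intervals and floors, which cover counting error only, are then too narrow. The labels name a kit with depletion of ribosomal RNA and, as molecule, polyA RNA, which was not settled. The description of the KHT samples speaks of negative controls, so groups were taken from titles and the treatment field.

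Symbols matched 27004 identifiers. Genes passing filterByExpr (10714) were tested with edgeR 4.0.16 in R 4.3.3 (glmQLFit robust, glmQLFTest) in 1 fit of KHT, NEG and IPT with TMM scaling, two-sided, with Benjamini-Hochberg adjustment over all genes tested and a threshold of 0.05. Normalised CPM uses the TMM library sizes. The alternative filter at a mean of 10 CPM used total counts as library size instead. A group at 0 was set at a floor of 3 counts over the group, and 1 to 3 counts were given as a ratio with an exact 95% counting interval. Alternatives were DESeq2 1.42.0, limma voom (limma 3.58.1), total counts, counts outside the 9 features, no filter, a mean of at least 10 CPM, both groups alone, the replicate block, halved values and leaving out each library. NEG 5 as the one NEG library was added after seeing the data.

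Members, substrate groups and gene lists were chosen with earlier results of these data known. Named in full are the 8 tested members with the highest input CPM, up to 6 called members with the smallest p in each direction of each comparison, and Slc25a1, Slc25a3, Slc25a4, Slc25a5, Slc25a10 and Slc25a11. The values of 1 carrier are not reported here and it is left out of the plots, though it is kept in all fits and counts. The planned comparison of levels per length between genes was not made, because lengths were not used here.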

Additional observations from a re-analysis of the deposited data

Results flagged for a closer look

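A library was singled out where the gap from the highest or lowest of 4 libraries to its neighbour, as a share of the whole range of the group, was above Dixon's 95% critical value. Chance alone marks about 1 in 20 groups where values are spread normally. That rate does not hold for NEG, where a carrier with counts in 1 library only is always marked. Over 36 carriers tested, this marked 1 in KHT, 16 in NEG and 6 in IPT.

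In NEG all 16 gaps were 1.0, because 1 library alone had counts. That was NEG 5 for 11 carriers, among them Slc25a1, Slc25a11, Slc25a13, Slc25a20, Slc25a24, Slc25a25, Slc25a30, Slc25a31, Slc25a34 and Slc25a36. It was NEG 4 for Slc25a10 and Slc25a45, NEG 3 for Slc25a22 and Slc25a46, and NEG 1 for Slc25a33. Several of these rest on 1 or 2 counts.

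In IPT, replicate 1 was apart each time. It was low for Slc25a10 (gap 0.937 of the range) and high for Slc25a33 (0.872), Slc25a37 (0.871), Slc25a39 (0.858), Slc25a42 (0.853) and Slc25a44 (0.873). In KHT, replicate 1 was high for Slc25a22 (0.855). The cause was not tested.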

How the results depend on the processing

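Depth in NEG limits every contrast with it. Main counts of carriers called were 19 for KHT with NEG, 0 for KHT with IPT and 18 for NEG with IPT. KHT with IPT stayed at 0 carriers in every alternative run. For KHT with NEG the count was 36 under total counts, 11 in the fit of both groups alone, 0 with NEG 5 as the one NEG library (chosen after seeing the data) and 8 to 24 with 1 library left out, the extremes without NEG 1 and without NEG 5. For NEG with IPT it was 36, 11, 0 and 8 to 23 in the same order, and 11 with counts outside the 9 features as library size. Over all genes, KHT with NEG gave 3615 calls, and 10440, 2121, 215 and 1911 to 5681 in that order. NEG with IPT gave 3872, and 10473, 2498, 245 and 2081 to 5760. KHT with IPT gave 1, with 0 under total counts and with a mean of at least 10 CPM, 7 in DESeq2, 9 in limma voom, 56 without a filter, 2 in both groups alone and 0 to 3 with 1 library left out.

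Signs turned for these log2 fold changes. Under total counts, where the median over all genes was 5.66 for KHT with NEG, -5.90 for NEG with IPT and -0.24 for KHT with IPT, they were 2.33 (Slc25a3) and 3.04 (Slc25a5) for KHT with NEG, -2.63 and -3.29 for NEG with IPT, and -0.24 (Slc25a5), -0.15 (Slc25a13), -0.015 (Slc25a39) and -0.068 (Slc25a44) for KHT with IPT. DESeq2 gave -0.015 for Slc25a5 there. Against NEG 5 alone, KHT with NEG gave 0.32 (Slc25a3), -0.11 (Slc25a4), 0.77 (Slc25a5), -0.15 (Slc25a11) and -0.66 (Slc25a51), and NEG with IPT gave -0.33, 0.034, -0.74, 0.17 and 0.57, with 0.084 for Slc25a13. With 1 library left out, KHT with IPT ran from -0.15 to 0.13 (Slc25a3), -0.076 to 0.13 (Slc25a5) and -0.16 to 0.30 (Slc25a13). The cause was not tested.

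With the replicate number as a block, 24 carriers were called for KHT with NEG, 24 for NEG with IPT and 0 for KHT with IPT. The block fits NEG 5, alone with its number, by itself. For KHT with NEG it did not call Slc25a22 (0.0823), Slc25a38 (0.0561) and Slc25a46 (0.0976), which are called without it, and it called, among others, Slc25a4 (0.0107), Slc25a5 (0.0148), Slc25a11 (0.00990), Slc25a13 (0.00549), Slc25a24 (0.00736), Slc25a34 (0.0198) and Slc25a51 (0.00994), which are not (edgeR adjusted p). Deviations of same-numbered KHT and IPT libraries correlated at 0.178, -0.387, 0.236 and 0.106, and of KHT and NEG at -0.0828, -0.125 and 0.0574, so the numbers were not taken as pairs.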
